A study of Mus musculus with 2 samples.

Results

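Fibrillar collagens form the tension-bearing fibrils of bone, tendon, skin and cartilage, and the mouse genes examined here encode chains of types I, III, V, XI and XXIV. The set consisted of Col1a1, Col1a2, Col3a1, Col5a1, Col5a2, Col5a3, Col11a1, Col11a2 and Col24a1, chosen by name with earlier results of these data known. All 9 were found among the 19465 genes of the count files. Spatial transcriptomes had been recorded by the study from 1 longitudinal femur section of a Control mouse and 1 of a Loaded mouse, with a probe-based assay for fixed, paraffin-embedded tissue that counts unique molecular identifiers (UMIs) in spots laid 100 µm apart. Both mice were females of the bone cell reporter (BCR) line, in which fluorescent reporters mark Ibsp (eGFP) and Acp5 (mCherry). At 12 weeks of age each received an osteotomy defect in the middle of the femoral shaft, held by an external fixator. From 3 weeks after surgery the Loaded mouse received cyclic mechanical loading through the fixator and the Control mouse received sham loading without force. Both were euthanized at 17 weeks of age, 5 weeks after surgery. Each condition is therefore represented by 1 section of 1 mouse out of 4 operated in all. The spots of a section are not replicates of a condition, so differences between Control and Loaded carry no test, and differences between mice, sections and treatment cannot be told apart.

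Type I collagen, a heterotrimer of the Col1a1 and Col1a2 chains, makes up most of the organic matrix of bone. Type III, a homotrimer of the Col3a1 chain, is abundant in granulation tissue, vessel walls, muscle sheaths and the fibrous layer of the periosteum, and is replaced by type I as a callus matures. Types V and XI are minor chains that sit inside heterotypic fibrils and set when a fibril starts and how thick it grows: type V, made of Col5a1, Col5a2 and Col5a3 chains, accompanies type I, while type XI, with Col11a1 and Col11a2, is best known from cartilage, where it accompanies type II. Col24a1 encodes a minor chain described in forming bone.

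In the spots that the study listed as bone between the inner fixator pins, fibrillar collagens were a larger part of the transcriptome in the Loaded section, and their mix differed. The 9 genes held 14008 of 557259 UMIs in 131 Control bone spots, 2.51% (95% interval 2.47 to 2.56), and 27574 of 409020 UMIs in 146 Loaded bone spots, 6.74% (6.66 to 6.82). In 4 blocks of each bone region, defined further on, they ran from 65.1 to 517 per 10,000 UMIs in Control and from 420 to 958 in Loaded. These ranges overlapped, and the lower right Control block alone held 9419 of the 14008 Control UMIs. Type I made up 76.2% of the collagen UMIs in Control bone and 90.3% in Loaded bone, whereas Col3a1 made up 16% and 4.71%. Intervals here and below are exact 95% intervals that cover counting error only. Because each gene is read by its own probes, a share of UMIs is not a molar share of chains. Probe efficiency cancels only where the same ratio is compared between regions.

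The 100 reference bases directly upstream of the RefSeq start are shown for 3 genes whose ratios to type I are reported below. They are from RefSeq on GRCm38.p6, on the plus strand, for chr1:45311438-45311537 (Col3a1), chr3:114030440-114030539 (Col11a1) and chr17:34039038-34039137 (Col11a2). Capitals mark matches, on either strand, to the CCAAT box (CCAAT), to the TATA box (TATAAA) and to the GC box (GGGCGG), which do not overlap one another here. For Col11a2 the RefSeq start lies upstream of the GENCODE start given further on.
Col3a1: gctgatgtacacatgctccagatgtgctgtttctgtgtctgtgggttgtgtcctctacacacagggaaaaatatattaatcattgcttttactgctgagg
Col11a1: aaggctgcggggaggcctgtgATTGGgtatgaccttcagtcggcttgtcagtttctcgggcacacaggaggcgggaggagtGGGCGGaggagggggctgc
Col11a2: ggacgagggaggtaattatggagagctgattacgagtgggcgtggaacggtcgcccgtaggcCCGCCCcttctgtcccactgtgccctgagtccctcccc

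Over the wider window of 250 bases before to 50 bases after the start, 7 of the 9 genes had an entry, all but Col1a1 and Col5a2. Col11a1 held 1 match to CCAAT and 2 to GGGCGG, and Col11a2 held 1 match to TATAAA and 2 to GGGCGG. Col3a1 held 1 match to TATAAA, 117 bases before the start, and none to the other motifs. Of 32851 promoter windows of this length, 37.4% held CCAAT, 13.6% TATAAA and 35.7% GGGCGG. These matches are descriptions of letters and were not related to the counts.

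In the annotation used here (GENCODE vM21, mm10) the genes lie on 7 chromosomes. Col3a1 (chr1:45311538-45349706, plus strand) and Col5a2 (chr1:45374321-45503282, minus strand) are neighbours, 24614 bases apart, with 0 annotated genes between them. The type I genes are at chr11:94936224-94953042 (Col1a1) and chr6:4504814-4541544 (Col1a2), and the type XI genes at chr3:114030540-114220718 (Col11a1) and chr17:34039437-34066685 (Col11a2). Col5a1 is at chr2:27886425-28039514, Col5a3 at chr9:20770050-20815067 on the minus strand, and Col24a1 at chr3:145292472-145552011.

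After the study's filter of at least 500 UMIs and 250 genes a spot, 1898 Control and 1431 Loaded spots remained, among them every listed bone spot. The median bone spot held 3478 UMIs (1363 to 21346) in Control and 2621 (509 to 12289) in Loaded. The rim was defined as the other spots within 250 µm of a bone spot (253 and 264 spots), and the remaining spots numbered 1514 and 1021. Of 8 osteoblast and osteocyte markers all were detected in both bone regions, at 0.0897% of UMIs in Control and 0.461% in Loaded, with Ibsp at 285 and 321 UMIs and Bglap at 126 and 1078. A list of 12 skeletal muscle genes took 13.3% and 6.93% of the bone UMIs, so bone spots also held RNA of neighbouring tissue. Tendon genes took 0.345% and 0.162%, fibroblast and periosteum genes 0.180% and 0.105%, and granulocyte genes 0.0854% and 0.355%. The largest parts of the tendon sum were Thbs4 (927 and 247 UMIs) and Comp (671 and 222). Scx, with 18 and 25 UMIs, alone ran the other way in that list (0.323 and 0.611 per 10,000). A spot covers several cells, and fewer cells of a type cannot be told apart from less RNA per cell.

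**Figure D1:**
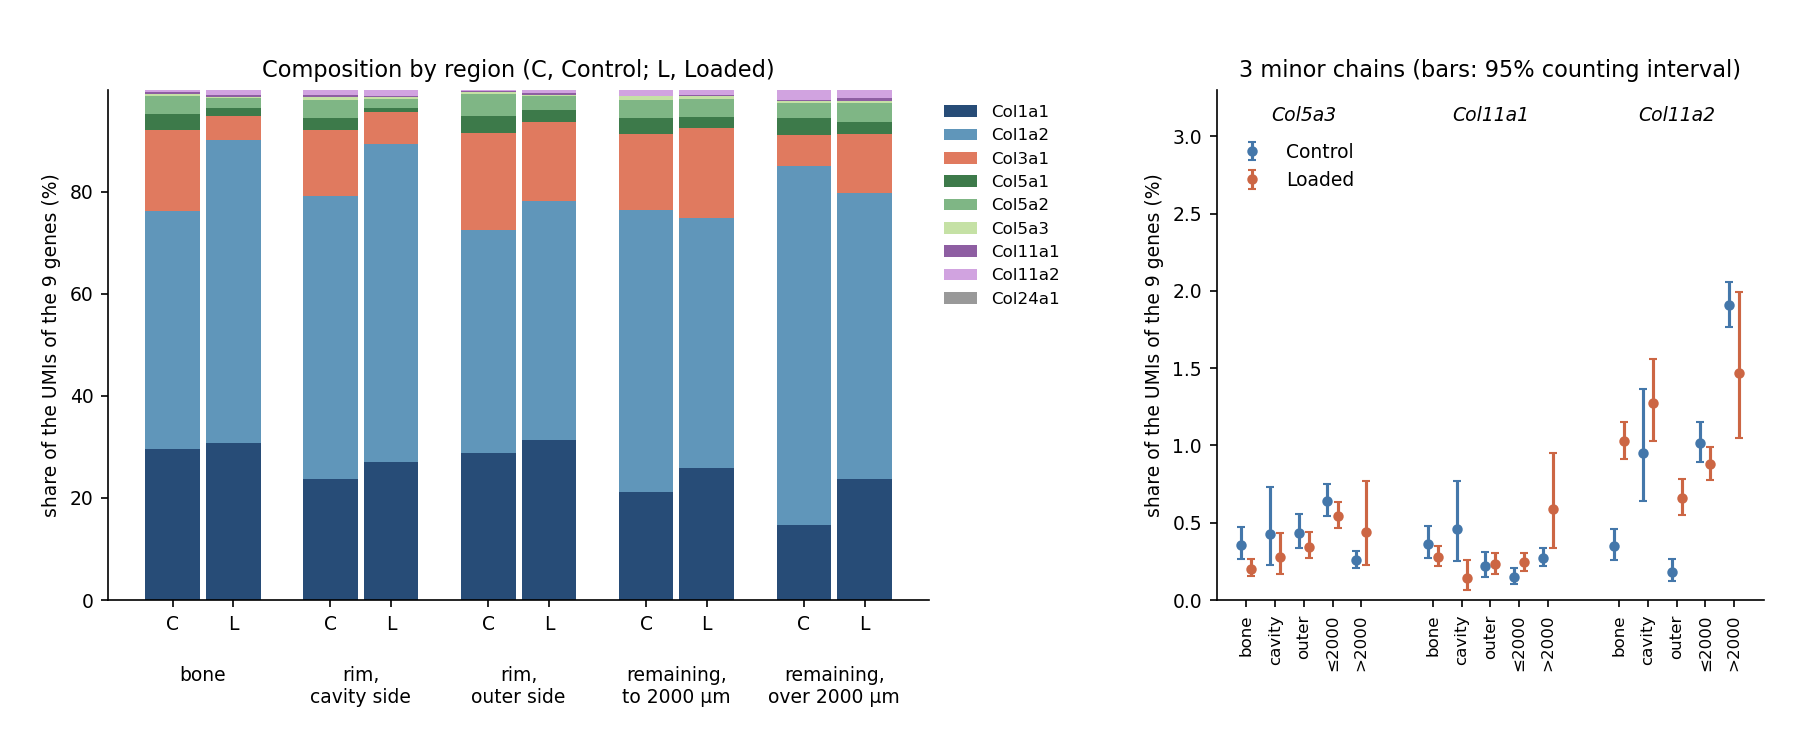
Left, share of the UMIs of the 9 fibrillar collagen genes (%) taken by each gene in Control (C) and Loaded (L) spots of the bone, of the rim on the cavity side and the outer side, and of the remaining spots up to and over 2000 µm from bone. Right, the same share for Col5a3, Col11a1 and Col11a2 with exact 95% counting intervals. Col3a1 takes 16% of the Control and 4.71% of the Loaded bone bar, and Col11a2 takes 0.350% and 1.03%.

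Among the chains of type I, Col1a1 gave 4152 UMIs in Control bone and 8503 in Loaded bone, and Col1a2 gave 6526 and 16387. Each was detected in all bone spots of both sections. Relative to size factors of the bone spots, the Loaded level of Col1a1 was 2.57-fold that of Control (log2 ratio 1.36, interval 1.31 to 1.42) and that of Col1a2 was 3.15-fold (1.66, 1.61 to 1.70). To show the spread inside a section, each bone region was divided into 4 blocks, the upper and lower cortex as imaged, each divided into a left and a right block at the median position of the bone spots along the shaft. Every bone spot was assigned to the upper or the lower cortex, so in Loaded these also hold the bone spots that lie between the cortices. Blocks are positions in the image, so a block of one section has no counterpart in the other.

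Col1a1 per 10,000 UMIs was 14.9, 58.5, 48.5 and 167 in the Control blocks and 291, 123, 259 and 134 in the Loaded blocks, in the order upper left, upper right, lower left and lower right. Those ranges overlapped, since the lower right Control block lay above the lowest 2 Loaded blocks. For Col1a2 the Control blocks gave 34.0, 143, 79.7 and 233 and the Loaded blocks 587, 254, 454 and 247, which did not overlap. The lower right Control block held 3038 of the 4152 Col1a1 UMIs and 4250 of the 6526 Col1a2 UMIs of the region. The upper left Control block, lowest in both genes, was the one with the highest muscle share, 24.5% of its UMIs. Leaving out 1 block at a time gave log2 ratios of 0.89 to 2.59 for Col1a1 and 1.24 to 2.51 for Col1a2, the lowest without the upper left and the highest without the lower right Control block. The part of muscle RNA in the levels of these 2 genes was not tested.

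Col3a1 was lower relative to type I in Loaded bone, whereas its level depended on 1 block. It gave 2241 UMIs in Control bone and 1298 in Loaded bone, in 129 of 131 and 141 of 146 spots, a Loaded level 0.727-fold that of Control (log2 ratio -0.46, -0.56 to -0.36). Per 10,000 UMIs its Control blocks ran from 10.9 to 78.7 and its Loaded blocks from 19.3 to 42.6, so the levels overlapped. The lower right Control block held 1435 of the 2241 Control UMIs, and without it the Col3a1 level was higher in Loaded (0.35). Set against type I the sections separated: Control bone held 21.0 Col3a1 UMIs per 100 type I UMIs (20.04 to 21.97) and Loaded bone 5.21 (4.93 to 5.51), a 4.02-fold lower ratio (log2 difference -2.01, -2.11 to -1.90). The 4 Control blocks gave 22.3, 12.1, 33.8 and 19.7 and the 4 Loaded blocks 4.07, 5.11, 5.98 and 7.40. Every Control block was above every Loaded block, and leaving out any 1 block kept the log2 difference between -2.19 and -1.75. Single spots overlapped, with medians in the same order. Among spots with at least 20 collagen UMIs, the median Col3a1 share was 15.8% (quartiles 11.7 to 21.1) in 128 Control spots and 5.04% (3.15 to 7.32) in 142 Loaded spots. The type I chains were themselves higher in Loaded bone, with log2 ratios of 1.36 and 1.66, beside a median of 0.02 over all genes. A gene of equal level in both sections therefore also has a lower ratio to type I in Loaded. The share of all genes whose ratio to type I had separate blocks was not computed.

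The ratios of the type V chains to type I were lower in Loaded bone, as for Col3a1, whereas their levels overlapped between the blocks of the sections. Col5a1, the chain that nucleates fibrils together with type I, gave 433 UMIs in Control bone and 400 in Loaded bone (log2 ratio of levels 0.21, 0.01 to 0.41). Col5a2, its usual partner, gave 504 and 563 (0.49, 0.31 to 0.66). Col5a3, the rarest chain of type V, gave 50 and 56 (0.49, -0.09 to 1.07), so its difference lay within counting error. The summed type V level (0.37) also rested on single Control blocks, with 1.20 without the lower right block and -0.07 without the upper left one. Together type V stood at 9.24 per 100 type I UMIs in Control (8.65 to 9.87) and 4.09 in Loaded (3.84 to 4.36), a 2.26-fold lower ratio in Loaded (log2 difference -1.17, -1.31 to -1.04). Blocks gave 8.66, 7.27, 14.0 and 8.74 in Control and 3.65, 4.55, 4.24 and 4.79 in Loaded, again without overlap, and each of the 3 genes taken alone did not overlap either. For Col5a3 this rests on few UMIs, with 8, 3, 18 and 21 in the Control blocks and 28, 7, 13 and 8 in the Loaded blocks. As for Col3a1, the ratio also falls where only type I is higher, and the share of all genes without such overlap was not computed. Relative to Col3a1, type V was higher in Loaded bone, with 78.5 against 44.0 UMIs per 100 (log2 difference 0.83, 0.67 to 1.00), and the blocks ran from 64.7 to 89.6 against 38.8 to 60.0. Within type V, Col5a2 per 100 Col5a1 UMIs was 116 in Control and 141 in Loaded (log2 difference 0.27, 0.01 to 0.54), with blocks from 93.3 to 126 and from 132 to 154. The blocks rest on 45, 34, 73 and 281 Col5a1 UMIs in Control and 171, 54, 99 and 76 in Loaded. For both ratios, the share of all gene pairs with separate blocks was not computed.

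Of the minor chains, Col11a2 showed the highest Loaded to Control ratio of the members tested. It gave 49 UMIs in Control bone, in 41 of 131 spots, and 283 UMIs in Loaded bone, in 106 of 146 spots, a 7.25-fold higher level (log2 ratio 2.86, 2.42 to 3.33). The Control blocks held 19, 12, 4 and 14 UMIs and the Loaded blocks 122, 47, 53 and 61. Per 10,000 UMIs this was 0.394 to 2.45 in Control and 5.57 to 9.21 in Loaded, with no overlap. Spots thinned to 1000 UMIs each gave at least 1 Col11a2 UMI in 14 of 131 Control spots (10.7%) and in 61 of 131 Loaded spots (46.6%), with 15 shallower Loaded spots left out. In remaining spots rich in muscle genes the thinned shares were 6.35% in Control and 4.70% in Loaded, at median depths of 5466 and 3547 UMIs before thinning. Those Control spots are no reference free of skeletal RNA, since they held 726 Col2a1 UMIs, 1.17 per 10,000 beside 0.359 in Control bone. In the other remaining spots the thinned shares were 28.6% in Control and 14.0% in Loaded. In Control, Col11a2 was thus detected in a larger share of those spots than of bone spots.

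Set against type I, Col11a2 was less uniform. Control bone held 0.459 UMIs per 100 type I UMIs (0.339 to 0.607) and Loaded bone 1.14 (1.01 to 1.28), a log2 difference of 1.31 (0.87 to 1.78). The upper Control blocks, however, gave 1.73 and 1.21 and the lower ones 0.307 and 0.192, while the Loaded blocks gave 1.05, 1.48, 0.896 and 1.46. Thus the blocks overlapped, and the low ratio of the Control region came from its lower cortex. Per 10,000 UMIs, Col11a2 itself was 0.847 and 2.45 in the upper and 0.394 and 0.768 in the lower Control blocks. Type I was 48.9 and 202 in the upper and 128 and 400 in the lower ones. The ratio also falls where type I is higher, and the part of type I in it was not tested. Within Control the ratio was 7.09-fold lower in the lower than in the upper cortex (log2 difference -2.83, -3.75 to -1.94), and within Loaded it was even (-0.02, -0.37 to 0.34).

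Col11a1 gave 51 UMIs in Control and 77 in Loaded bone (log2 ratio of levels 0.92, 0.39 to 1.46). In Control, 44 of the 51 lay in the lower right block, and the other 3 blocks held 4, 2 and 1. Without the lower right block the log2 ratio of levels was 3.12. The Loaded blocks held 34, 12, 14 and 17. Per 100 type I UMIs Col11a1 was lower in Loaded bone, 0.309 against 0.478 (log2 difference -0.63, -1.16 to -0.09), with overlapping blocks. Col11a2 per Col11a1 UMI was 0.961 in Control and 3.68 in Loaded. That Control value came from the same lower right block, where the ratio was 0.318. In the other 3 Control blocks it was 4.75, 6 and 4, on 1 to 4 Col11a1 UMIs each, against 3.59 to 3.92 in the Loaded blocks. Type XI as a whole was 0.937 per 100 type I UMIs in Control and 1.45 in Loaded (log2 difference 0.63, 0.30 to 0.96), with overlapping blocks of 0.384 to 2.10 and 1.13 to 1.87, and a difference of 0.22 without the lower right Control block. Per 100 type V UMIs, type XI ran from 2.73 to 24.2 in Control blocks and from 26.7 to 41.0 in Loaded blocks. These rest on 23, 14, 5 and 58 type XI UMIs in the Control blocks and 156, 59, 67 and 78 in the Loaded blocks. The share of all gene pairs with separate blocks was not computed.

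Col24a1 was near the limit of detection, with 2 UMIs in Control and 7 in Loaded bone, fewer than the 10 UMIs required for a ratio to be counted. Thinned to 1000 UMIs it was seen in 0 of 131 Control spots, with an exact interval that reaches 2.78%, and in 1 of 131 Loaded spots. Its blocks held 1, 0, 0 and 1 UMIs in Control and 3, 2, 1 and 1 in Loaded, which per 10,000 UMIs was 0 to 0.0549 and 0.0914 to 0.238. These did not overlap but rest on 0 to 3 UMIs a block, and the interval of the ratio of levels included no difference (log2 ratio 2.13, -0.26 to 5.44).

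**Figure D2:**
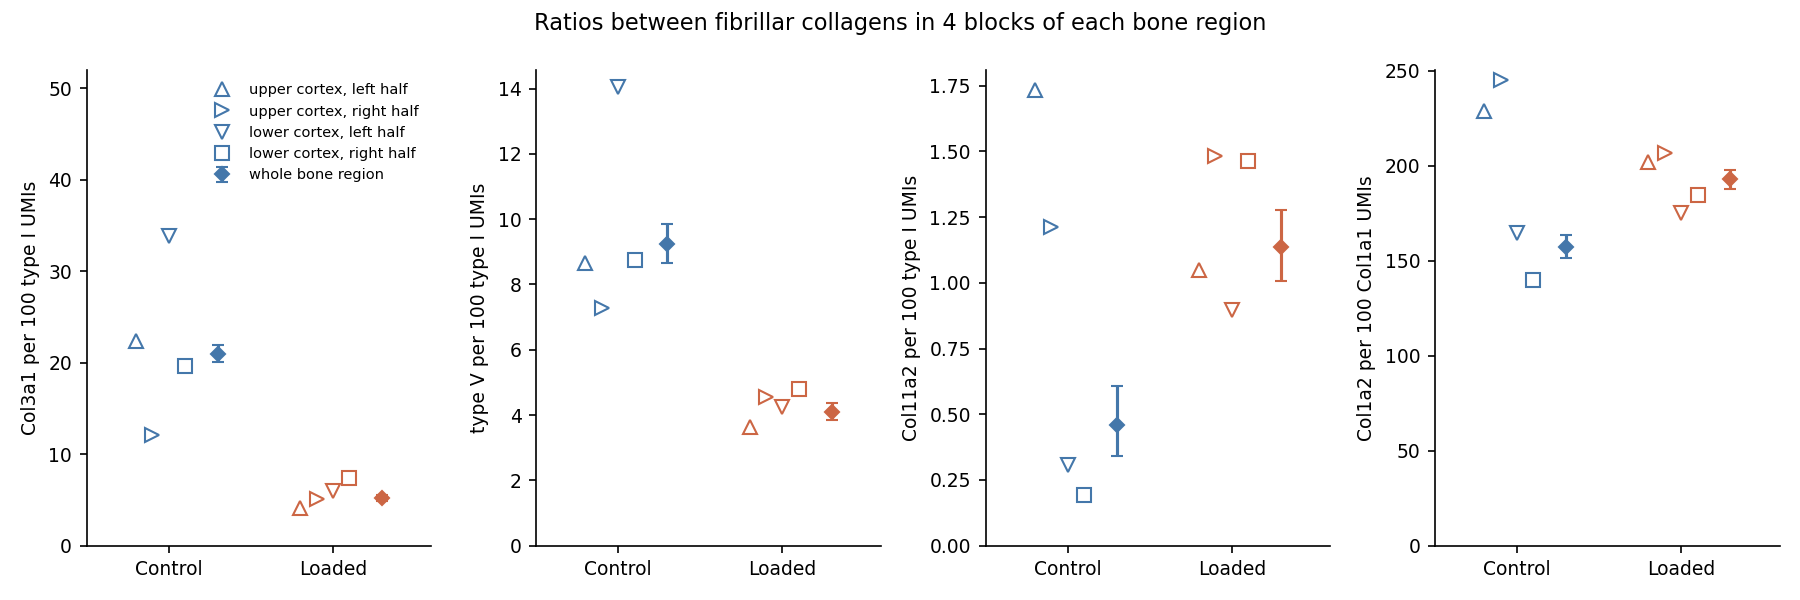
Ratios between fibrillar collagens in the 4 blocks of each bone region (open symbols) and in the whole region (filled, exact 95% counting interval), for Col3a1, type V and Col11a2 per 100 type I UMIs and for Col1a2 per 100 Col1a1 UMIs. Control blocks of Col3a1 lie from 12.1 to 33.8 and Loaded blocks from 4.07 to 7.40, whereas for Col11a2 and for Col1a2 the blocks of the sections overlap.

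With type I left aside, the mix of the other chains also differed in bone. Col3a1 held 67.3% of the UMIs of the 7 other genes in Control and 48.4% in Loaded, type V held 29.6% and 38.0%, and type XI 3.00% and 13.4%. Most of the type XI difference was Col11a2, with 1.47% and 10.5%.

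Counted against all genes, 3 of the 8 members with at least 10 UMIs in the bone regions (Col1a1, Col1a2 and Col11a2) had a level at least 2-fold higher in Loaded bone, where 10.6% of 10003 genes did, and 0 of 8 were at least 2-fold lower, where 9.81% of genes were. Blocks did not overlap, with Loaded higher, for 2 of 8 members (Col1a2 and Col11a2) against 3.55% of all genes, and with Loaded lower for 0 of 8 against 2.7%. The members were chosen with earlier results of these data known, and the study had reported Col1a1 and Col1a2 as up-regulated in Loaded. These counts are therefore descriptions and no test of the set. The median log2 ratio over the 8 members was 0.71, beside 0.02 over all genes. With library totals in place of size factors all ratios in bone shift up by 0.12, and 4 of 8 members pass 2-fold. Leaving out the lower right Control block raised the median to 1.95 and the count of 2-fold higher members to 6, and leaving out the upper left Control block lowered the median to 0.30. In the 32 Control and 42 Loaded bone spots with a muscle share under 5%, the median was 0.45 and 2 of 8 members passed 2-fold. The share over all genes was not computed with library totals, without a block or for those spots. The median over all genes was likewise not computed without a block or for those spots.

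The ratio of the type I chains to each other, Col1a2 to Col1a1, differed little in bone. It was 1.57 in Control (1.51 to 1.63) and 1.93 in Loaded (1.88 to 1.98), a log2 difference of 0.29 (0.23 to 0.36). The Control blocks gave 2.28, 2.45, 1.64 and 1.40 and the Loaded blocks 2.02, 2.07, 1.75 and 1.84, which overlapped. Without the lower right Control block the log2 difference was -0.08. In both sections the ratio was lower in deeper spots. Bone spots with 1000 to 2000 UMIs gave 2.38 in Control and 2.36 in Loaded, those with 2000 to 4000 UMIs gave 1.71 and 2.16, and those with 4000 to 8000 UMIs gave 1.43 and 1.65. Still deeper bone spots gave 1.47 in Control and 1.28 in Loaded, the latter from 2 spots. The part of depth in the ratio was not tested. The Col3a1 to type I ratio of Loaded bone stayed between 4.70 and 5.47 per 100 over all depth classes, and that of Control bone was 10.9 in the shallowest class and 21.1 to 23.2 in the others.

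Loaded bone spots with more muscle RNA held more Col3a1 relative to type I. Where muscle genes took under 5% of a spot's UMIs, Loaded spots held 3.88 Col3a1 UMIs per 100 type I UMIs, with 6.22 at 5 to 10% and 9.06 at 10 to 15%. Control spots gave 19.99, 24.7 and 14.4 in the same classes. The 41 Control spots at 15% or more gave 21.9, and the 2 Loaded ones 11.8. The log2 difference between sections was -2.36 in the 32 Control and 42 Loaded spots with the lowest muscle share, beside -2.01 in all spots.

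The cortices of one section differed from each other. In Control the lower cortex held 1.25-fold more Col3a1 per type I than the upper one (log2 difference 0.32, 0.14 to 0.50), and in Loaded 1.53-fold more (0.61, 0.45 to 0.78). The Control blocks overlapped, with 22.3 and 12.1 per 100 in the upper and 33.8 and 19.7 in the lower cortex. The Loaded blocks did not, with 4.07 and 5.11 in the upper and 5.98 and 7.40 in the lower cortex. Col1a2 per Col1a1 was lower in the lower cortex of both sections, by more in Control (-0.72, -0.87 to -0.57) than in Loaded (-0.18, -0.26 to -0.11). Type XI per type I was lower in the lower cortex of Control (-1.27, -1.89 to -0.64) and even in Loaded (-0.02, -0.33 to 0.30). The image does not say which anatomical side these cortices are, so they were not matched between sections. The Loaded cortices as defined here include the bone spots lying between them.

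Moving out of the bone, the sections differed in how far the mix departed from that of bone. In Control the rim held 24.3 Col3a1 UMIs per 100 type I UMIs against 21.0 in bone (log2 difference 0.21, 0.13 to 0.30). In Loaded the rim held 15.9 against 5.21, a 3.06-fold higher ratio (1.61, 1.52 to 1.71). Type V showed a smaller step, from 9.24 to 10.5 in Control (0.18, 0.05 to 0.30) and from 4.09 to 5.90 in Loaded (0.53, 0.40 to 0.65). Type XI per type I differed by less than counting error between the whole rim and bone (-0.26, -0.68 to 0.15, in Control and -0.19, -0.42 to 0.04, in Loaded), but the Control rim was above bone on its cavity side (0.93) and below it on its outer side (-0.76), as defined next.

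These values differed between the sides of the bone. Rim spots that had bone spots on both sides across the shaft were called the cavity side and the others the outer side. On the cavity side erythroid genes took 10.7% of UMIs in Control and 9.51% in Loaded, against 0.878% and 1.04% on the outer side. Cavity-side spots were also shallower, with medians of 1817 UMIs in Control and 2606.5 in Loaded, against 5128 and 4109 on the outer side. Muscle genes took 8.76% and 4.19% of UMIs on the cavity side, against 18.1% and 12.6%. The parts of depth and of muscle RNA in the differences between the sides were not tested. Col3a1 per 100 type I UMIs was 16.3 on the cavity side and 26.1 on the outer side in Control (log2 difference 0.68, 0.52 to 0.85), and 7.06 and 19.6 in Loaded (1.47, 1.32 to 1.62). With only the cavity side, the Control rim lay below bone in Col3a1 to type I (-0.37) and the Loaded rim stayed 0.44 above it. Type V was also lower on the cavity side than on the outer side, with 8.04 and 11 in Control and 3.29 and 6.96 in Loaded, and its cavity-side ratio lay below that of bone in both sections. Col11a2 ran opposite, with 1.20 per 100 type I UMIs on the cavity side and 0.253 on the outer side in Control (-2.25, -3.06 to -1.44), and 1.43 and 0.844 in Loaded (-0.76, -1.15 to -0.35). The Col1a2 to Col1a1 ratio was also higher on the cavity side, 2.33 against 1.52 in Control and 2.29 against 1.49 in Loaded, nearly the same pair of values in each section.

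**Figure D3:**
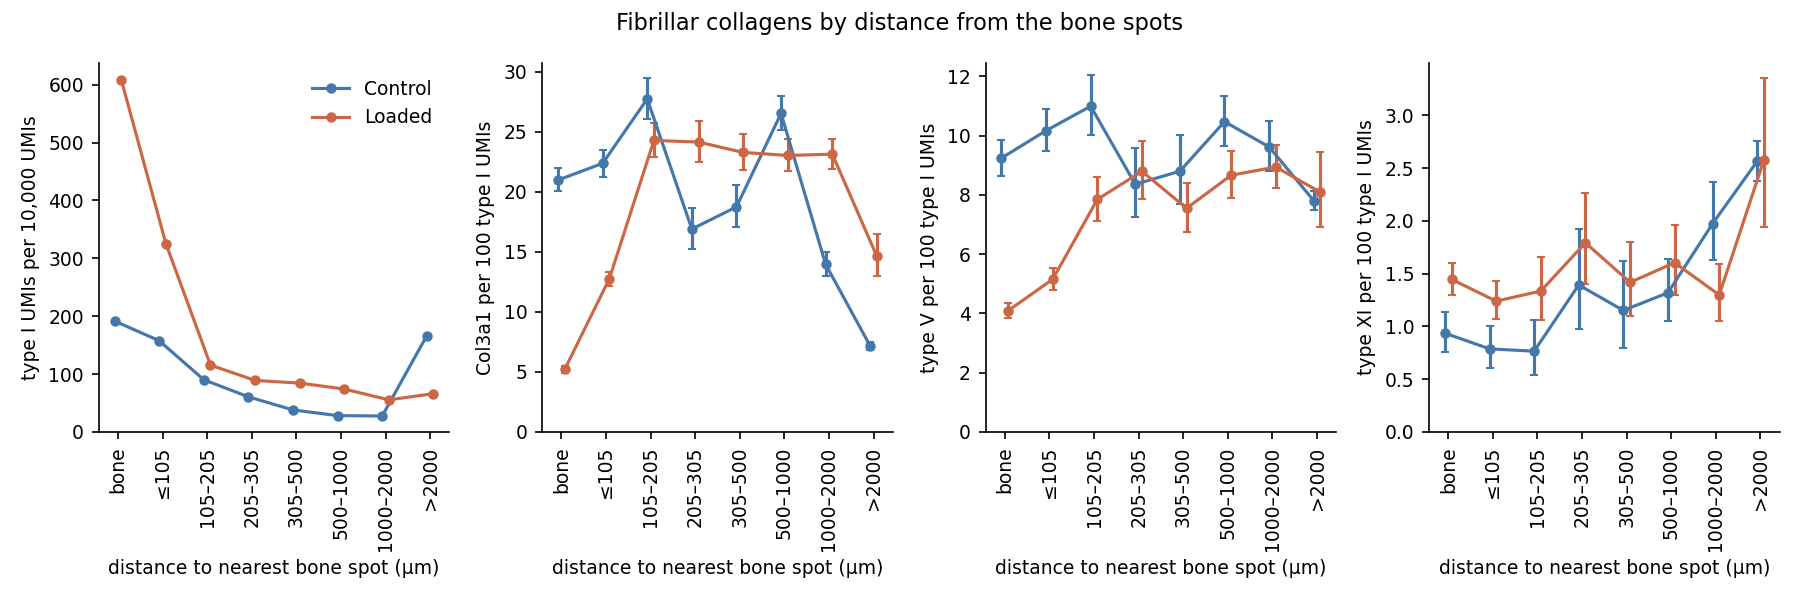
Type I UMIs per 10,000 UMIs and, per 100 type I UMIs, Col3a1, type V and type XI UMIs, in bone spots and in classes of distance from the nearest bone spot (µm), for Control and Loaded, with exact 95% counting intervals on the ratios. In Loaded, Col3a1 per 100 type I UMIs is 5.21 in bone, 12.8 within 105 µm and 24.3 at 105 to 205 µm, while Control is 21.0 in bone. The distance classes pool the cavity and the outer side.

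By distance, with the cavity and the outer side pooled, the Loaded gradient was short. Type I stood at 609 UMIs per 10,000 in bone, 325 in the adjacent spots (within 105 µm) and 116 at 105 to 205 µm, and Col3a1 per 100 type I UMIs over the same steps at 5.21, 12.8 and 24.3. From there to 2000 µm it stayed between 23.0 and 24.2. In Control, type I was 192, 158 and 90.2 per 10,000 over those steps and Col3a1 per 100 type I UMIs was 21.0, 22.4 and 27.7. It then varied between 14.0 and 26.5 out to 2000 µm. At 105 to 205 µm the sections were thus much closer in the Col3a1 ratio than in bone. The sides were not alike in this step, since the Loaded rim lay above bone by a log2 difference of 0.44 on the cavity side and 1.91 on the outer side.

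**Figure D4:**
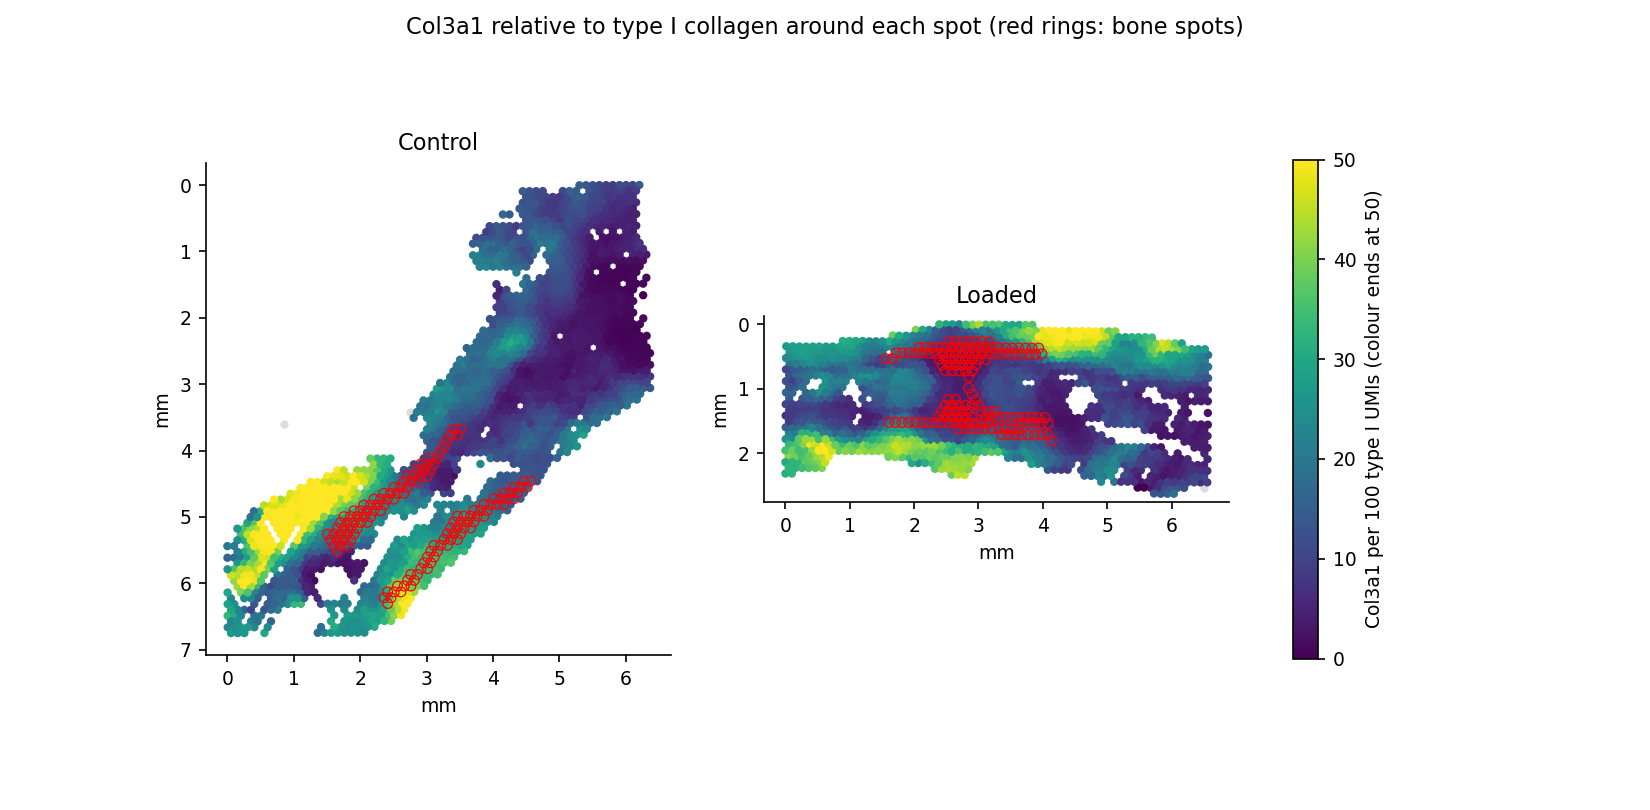
Map of both sections in mm, each spot coloured by Col3a1 UMIs per 100 type I UMIs summed over spots within 210 µm (colour ends at 50), with bone spots ringed in red. In Loaded the ringed cortices lie in a dark, low band with higher values along the outer edges, and bone spots also lie across the space between the cortices. In Control the ringed spots form 2 separate strips.

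Comparing levels between sections outside bone, the rim held 8221 Col1a1 UMIs in Loaded and 4955 in Control (log2 ratio 0.60, 0.55 to 0.65), and Col1a2 was similar (0.63, 0.59 to 0.67). Col3a1 was level (0.01, -0.06 to 0.08), and Col5a1 and Col5a2 were slightly lower (-0.23 and -0.22). With library totals, which shift every ratio of the rim by 0.18, these were 0.19, -0.04 and -0.04, so the small differences depend on the scaling. Of 8 members tested, only Col11a2 was at least 2-fold higher in the Loaded rim, with 223 against 56 UMIs (1.86, 1.43 to 2.31), where 7.1% of 11704 genes were. The median over members was 0.12.

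The step in level from rim to bone was steeper in Loaded for most members. Col1a1 was 2.49-fold higher in bone than in the rim in Loaded and 1.47-fold in Control, and Col1a2 2.85-fold and 1.41-fold. Col11a2, with 283 and 223 UMIs in Loaded bone and rim and 49 and 56 in Control, was 3.05-fold and 1.53-fold higher in bone. Col3a1 was the member below the rim in Loaded bone, at 0.888-fold (log2 ratio -0.17, -0.26 to -0.08), while in Control it was 1.24-fold above it. Whether these steps differ between conditions has no replicate section behind it.

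In the remaining spots 0 of 9 members were at least 2-fold higher in Loaded, where 6.83% of 15485 genes were, and 1 of 9, Col24a1, was at least 2-fold lower with 6 against 36 UMIs, where 5.5% were. Library totals shift the ratios of all genes by 0.38, and Col3a1 then passes 2-fold in Loaded (1.05). The share of all genes that then pass was not computed. Here the sections did not cover the same anatomy. In Control 583 spots lay more than 2000 µm from bone and held 29405 of the 47247 type I UMIs of the remaining spots, along with 12.4 Col2a1 UMIs per 10,000, the type II gene that marks cartilage. In Loaded 98 spots lay that far out, with 0.152 Col2a1 UMIs per 10,000. Within 2000 µm of bone, Col3a1 per 100 type I UMIs was 19.6 in Control and 23.3 in Loaded (log2 difference 0.25, 0.18 to 0.32), against 11.9 and 22.6 (0.93, 0.87 to 0.99) over all remaining spots. Col1a2 per Col1a1 UMI was 2.601 and 1.90 within that distance (-0.45, -0.51 to -0.39) and 4.82 and 2.37 beyond it. Type V per 100 type I UMIs was 8.49 and 8.50 over all remaining spots, the same in both sections within counting error (0.00, -0.08 to 0.08), but it was lower in Loaded within 2000 µm of bone (-0.17, -0.27 to -0.07).

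Within Control, bone stood above the remaining spots by at least 2-fold for 5 of 9 members, where 13.8% of 14033 genes did, led by Col1a1 (log2 ratio 1.88, 1.83 to 1.93) and Col3a1 (1.83, 1.76 to 1.90). Lower by at least 2-fold were 2 of 9, Col11a2 with 49 UMIs in bone and 896 in the remaining spots (-1.04, -1.49 to -0.63) and Col24a1 with 2 and 36 (-1.02, -4.12 to 0.94), where 10.6% of genes were. With library totals, which shift the ratios of all genes by 0.58, 7 of 9 were higher and 0 lower. The share of all genes was not computed with that scaling. Most UMIs of the remaining Control spots, 6182364 of 7374083, came from spots rich in muscle genes. In the other remaining spots the 9 genes took 2.99% of UMIs in Control, beside 2.51% in bone, and 1.53% in Loaded, beside 6.74%. In those Control spots Col1a2 was higher than in bone (205 against 117 per 10,000), whereas Col1a1 (48.5 against 74.5) and Col3a1 (20.5 against 40.2) were lower. Within Loaded 8 of 9 members were at least 2-fold above the remaining spots, where 8.84% of 13002 genes were. Col1a1 and Col1a2 were 7.01-fold and 6.97-fold higher in bone, Col11a2 6.44-fold and Col11a1 5.98-fold, and Col3a1, the exception, 1.61-fold (0.69, 0.60 to 0.78). With library totals, a shift of 0.32 for all genes, all 9 passed 2-fold, and here too the share of all genes was not computed.

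**Figure D5:**
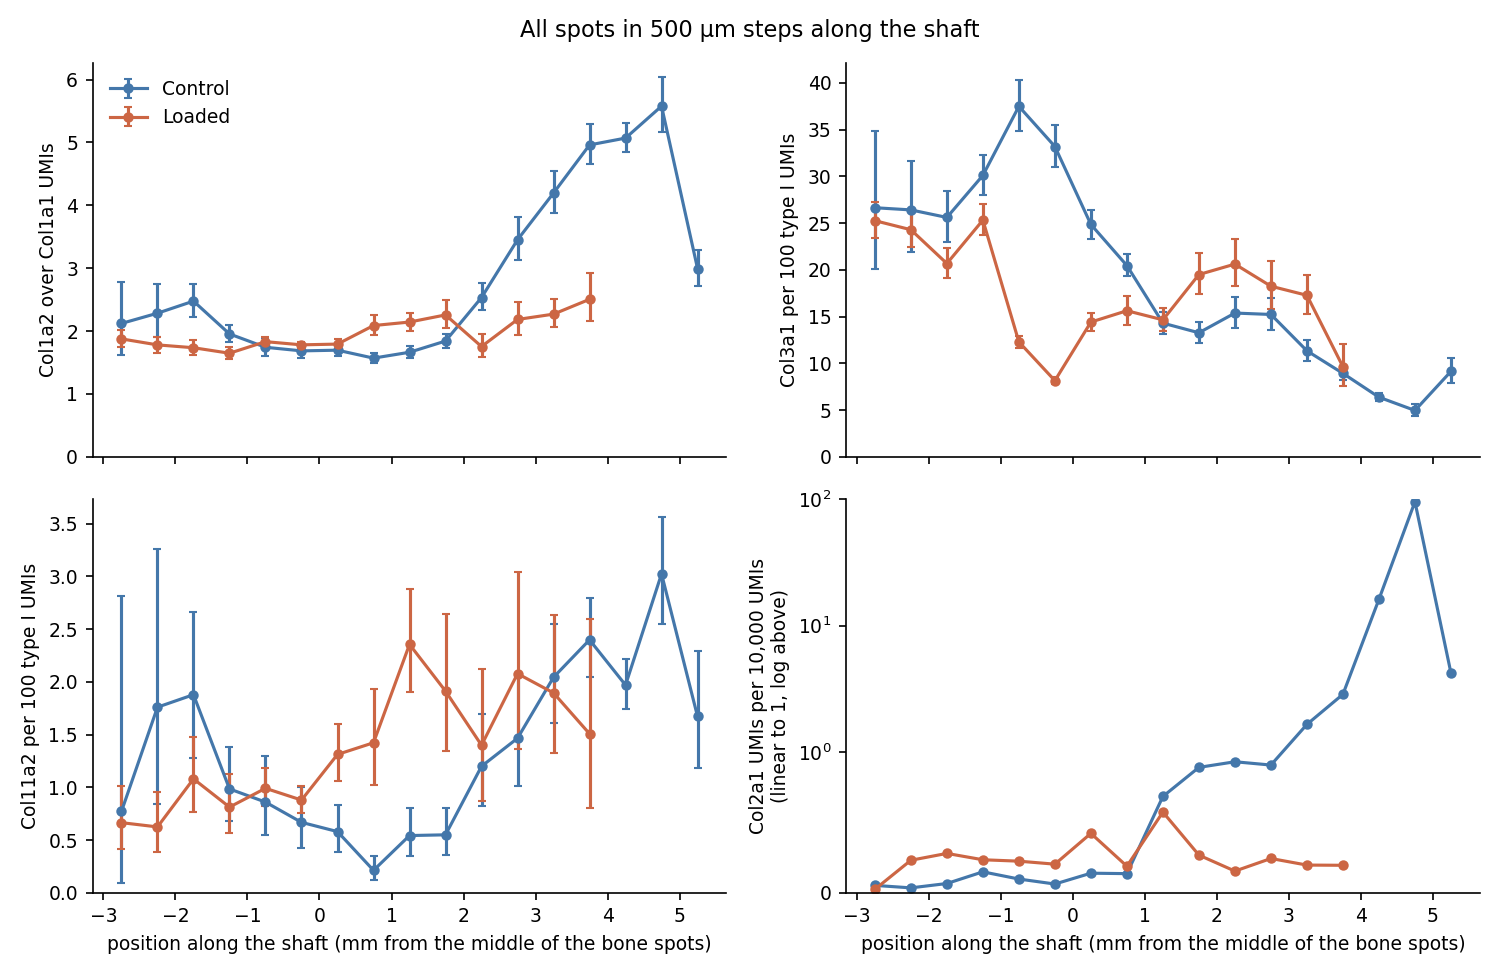
All spots in steps of 500 µm along the shaft (position in mm from the middle of the bone spots), for Control and Loaded: Col1a2 over Col1a1 UMIs, Col3a1 and Col11a2 per 100 type I UMIs with exact 95% counting intervals, and Col2a1 per 10,000 UMIs on an axis that is linear to 1 and logarithmic above. In Control the step at 4500 to 5000 µm, the last but one, has the highest Col1a2 to Col1a1 ratio (5.58), the lowest Col3a1 ratio (4.95) and 95.5 Col2a1 UMIs per 10,000.

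Along the Control shaft the ratio of the type I chains was far from even. Col1a2 per Col1a1 UMI was 1.57 (1.495 to 1.646) at 500 to 1000 µm from the middle of the bone spots and 5.58 (5.16 to 6.04) at 4500 to 5000 µm, where Col2a1 reached 95.5 UMIs per 10,000. Col3a1 per 100 type I UMIs was highest, at 37.5, at -1000 to -500 µm and lowest, at 4.95, at 4500 to 5000 µm. Col11a2 per 100 type I UMIs ran from 0.213 at 500 to 1000 µm to 3.02 at 4500 to 5000 µm. In the last Control step, at 5000 to 5500 µm, Col1a2 per Col1a1 was 2.99, Col3a1 per 100 type I UMIs 9.13 and Col2a1 4.23 UMIs per 10,000. In Loaded, Col1a2 per Col1a1 stayed between 1.65 and 2.50, and Col3a1 per 100 type I UMIs was lowest, at 8.14, at -500 to 0 µm, inside the bone region. Over all Control spots the type I ratio also differed with depth, from 7.08 below 1000 UMIs a spot to 1.73 in the deepest class. The corresponding Loaded values were 2.31 and 1.45. Spot depth, Col2a1 and position went together in Control, and their parts in the ratio were not tested.

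Across bone spots the chains of type I varied together, and the other pairs of members less closely. Pearson's r of log2(1 + UMIs over size factor) between Col1a1 and Col1a2 was 0.89 over 131 Control spots and 0.87 over 146 Loaded spots, all from 1 library per section. Between Col1a1 and Col3a1 it was 0.72 in Control and 0.46 in Loaded, and between Col1a1 and Col5a2 0.72 and 0.62. Col5a1 and Col5a2, both chains of type V, gave 0.55 and 0.34, and Col3a1 and Col5a2 gave 0.65 and 0.32. Col11a2 varied with Col1a1 in Loaded (0.48) but hardly in Control (-0.05), where most spots held no Col11a2 UMI. Type I ran with the osteoblast and osteocyte list at 0.41 in Control and 0.71 in Loaded, and with the tendon list at 0.74 and 0.23. Col3a1 ran with the tendon list at 0.74 and 0.30 and with the fibroblast and periosteum list at 0.55 and 0.13. Against the muscle list Col3a1 stood at -0.75 in Control and 0.04 in Loaded, type I at -0.77 and -0.37, and type V at -0.75 and -0.20. Depth per spot and the mix of tissues under a spot are shared by all these pairs.

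Among 759 other genes with a mean of at least 0.5 UMIs per bone spot in both sections, those whose pattern over spots was most like type I were Ibsp (r = 0.57 in Control and 0.62 in Loaded), Sparc (0.78 and 0.57), Serpinh1 (0.46 and 0.44), Rcn3 (0.38 and 0.35) and Lum (0.52 and 0.33), ordered by the lower of the 2 values. Ibsp, whose locus carries a reporter in these mice, and Sparc encode matrix proteins of bone that bind mineral or collagen, Serpinh1 the collagen chaperone HSP47, and Lum a small proteoglycan of collagen fibrils. For Col3a1 the list was Sparc (0.76 and 0.57), Serpinh1, Fmod, Gpx3 and Ibsp, and for type V it was Sparc (0.74 and 0.55), Serpinh1, App, Gpx3 and Ibsp. Col11a2, with a mean of 0.374 UMIs per Control bone spot, was too sparse to rank.

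The genes that process, bind or break down these chains were, by their medians, close to or below the Control level in Loaded bone. Of 26 genes for processing (hydroxylases, chaperones, procollagen proteinases and lysyl oxidases), 24 had at least 10 UMIs. Of these 1 was at least 2-fold higher in Loaded and 0 were lower, beside 10.6% and 9.81% of all genes, with a median log2 ratio of -0.15. The 1 higher gene was Adamts14, with 6 UMIs in Control and 17 in Loaded (1.83, 0.42 to 3.46). Serpinh1 gave 277 UMIs in Control and 282 in Loaded (log2 ratio of levels 0.35, 0.11 to 0.60), Bmp1, which trims the procollagen C-propeptide, 146 and 171 (0.56, 0.23 to 0.88), Pcolce, its enhancer, 320 and 152 (-0.75, -1.03 to -0.46), and the cross-linking enzyme Loxl1 161 and 67 (-0.94, -1.37 to -0.52). Of 17 genes for fibril-binding proteins and collagen receptors, 15 had enough UMIs, 2 were at least 2-fold higher and 1 lower, beside the same 10.6% and 9.81%, with a median of -0.50. The proteoglycans Dcn (506 and 214 UMIs, -0.91, -1.15 to -0.68) and Bgn (713 and 328, -0.79, -0.99 to -0.60) and the fibril-associated collagen Col14a1 (117 and 44, -1.08, -1.62 to -0.57) were lower in Loaded, each with overlapping blocks.

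Receptors were sparse. Itga10, an integrin chain that binds collagen, gave 5 UMIs in Control and 25 in Loaded bone (2.65, 1.24 to 4.39). Ddr2, a receptor tyrosine kinase for fibrillar collagen, gave 10 and 27 (1.76, 0.67 to 2.97). Both had blocks that did not overlap, 2 of the 15 genes for binding and receptors, where 3.55% of all genes did. Itga1 gave 14 and 6 UMIs (-0.89, -2.56 to 0.58) with separate blocks in the other direction, 1 of the 15, where 2.7% of all genes did. The blocks of these genes rest on few UMIs each. Itga11 gave 43 and 24 (-0.51, -1.30 to 0.24) and Ddr1 28 and 20 (-0.16, -1.06 to 0.72). Of the 6 genes for collagen breakdown 0 passed 2-fold in either direction, where about 10.6% and 9.81% of all genes did, with Mmp2 at 447 and 187 UMIs (-0.93, -1.18 to -0.68) and Ctsk, the main collagenase of osteoclasts, at 1025 and 935 (0.19, 0.07 to 0.32). Of the fibrillar collagens outside the set, Col2a1 gave 20 and 33 UMIs in bone (1.05, 0.21 to 1.93) and Col27a1 18 and 21 (0.55, -0.43 to 1.54). Thus 1 of these 2 genes was at least 2-fold higher in Loaded, beside 10.6% of all genes, and both had overlapping blocks. The 8 chondrocyte markers, Col2a1 among them, summed to 60 UMIs in Control bone and 57 in Loaded bone, 0.0108% and 0.0139% of UMIs, with Matn3 at 0 in both and Hapln1 at 0 in Control. Within this sum Acan, with 23 and 7 UMIs, ran opposite to Col2a1. By the rule for this list no gene had both 50 UMIs and separate blocks, and the genes named in the last 2 paragraphs were chosen after their values were seen.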

How the data were processed

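The deposited files hold UMI counts per gene and spot, made by the authors with SpaceRanger 2.0.0 on mm10 and not normalized. Downstream, the processing notes name R 4.3.1 and Seurat. Spots with at least 500 UMIs and 250 genes were kept, as in the study, and the bone region was taken from the study's list of bone spot barcodes, which the authors chose on the stained sections. Counts were summed over the spots of a region. Ratios between members needed no scaling. The interval of a ratio is exact and conditional on the summed counts, and for a ratio compared between regions it is the exact conditional interval of an odds ratio. Levels were scaled with scran 1.30.0 size factors, as the study did, over the bone spots, or over all spots for other regions. A level was counted as higher or lower at 2-fold with at least 10 UMIs. The study's DESeq2 test on spots was not repeated because spots are not independent samples. Members and gene lists were chosen with earlier results of these data known. Outside the members, genes of the list were to be named at 50 UMIs and separate blocks, and like-pattern genes as the 5 with the highest lower correlation. Alternatives were other spot filters, muscle shares, weights, rim widths, size factors (edgeR 4.0.16 TMM factors among them), and leaving out each block. The calculation of ratios and their intervals was tested on simulated counts that held only the counting error the intervals assume. Those counts had no differences between blocks, so the test does not bear on that spread. Of the spot barcodes, 557 occur in both sections, since they name positions of the array. Python 3.11.15, numpy 2.4.6 and scipy 1.17.1 were used.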

Additional observations from a re-analysis of the deposited data

How the results depend on the processing

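Values are log2 differences unless stated. Of the 76 values recomputed under alternatives that leave out no block, 42 were classed as unmoved, 25 as moved and 9 turned direction. Unmoved meant within the counting interval of the main value. For the median it meant within the medians of the members' interval ends, and for the count of members within a fixed fold. Some of the 42 could not move: dropping the spot filter changed no bone or Control rim value, and a minimum of 50 UMIs left the median as it was. In bone, Loaded over Control, Col3a1 to type I was -2.36 with a muscle share under 5% and -1.88 with equal weight for every spot (-2.19 to -1.75 leaving out blocks); type V to type I was -1.33 at low muscle share (-1.33 to -1.04); type XI to type I ran from 0.22 to 0.85 and the median of the members from 0.30 to 1.95 leaving out blocks. Col1a2 to Col1a1 was 0.47 at low muscle share and ran from -0.084, the turned value without the lower right Control block, to 0.36. The count of members at least 2-fold higher was 2 with a muscle share under 5%, 5 in spots of 2000 to 4000 UMIs and 2 to 6 leaving out blocks. The share of all genes was not computed for these alternatives. Leaving out blocks, the level in bone ran from -0.89 to 0.35 for Col3a1, from -0.22 to 1.05 for Col5a1 and from -0.074 to 1.20 for type V. For Control rim over bone, Col3a1 to type I was 0.30 at low muscle share, -0.016 with equal weight, 0.093 and 0.12 for rims of 150 and 350 µm, -0.37 for the cavity side and 0.32 for the outer side. Type V was 0.030 with equal weight and -0.20 for the cavity side, and type XI was 0.22 with equal weight, 0.93 for the cavity side and -0.76 for the outer side. For Loaded rim over bone at low muscle share, with equal weight, for rims of 150 and 350 µm, and for the cavity and the outer side, Col3a1 was 1.35, 1.41, 1.29, 1.76, 0.44 and 1.91, and type V 0.23, 0.36, 0.33, 0.66, -0.32 and 0.77. Type XI was 0.12 at low muscle share and 0.13 on the cavity side. Restricted to 2000 µm from bone, remaining spots gave 0.25 for Col3a1, -0.17 for type V, -0.026 for type XI and -0.45 for Col1a2 to Col1a1. The restriction to 2000 to 4000 UMIs, the count of members, the levels without a block and the values for remaining spots were chosen after seeing the data. The cause of these shifts was not tested. No paired analysis was possible because each condition has 1 section. Depth limits Col24a1, Col5a3 and Col11a1 in bone, and no replicate section bears on any difference.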
